A study of Mus musculus with 8 samples.

Results

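The genes described here make cholesterol and fatty acids, sense sterols or move them. They were taken as a list of 36 genes by symbol: a sterol set of 23 genes of cholesterol synthesis and its control, a fatty acid set of 10 genes of synthesis, elongation and desaturation, and Srebf1, Abca1 and Abcg1, which were kept apart from both sets. Of the 36, 35 had a probe set that carries their symbol alone, and all 35 were bright enough to test, out of 10547 tested genes among 18193 named on the array. Acat2 had 0 such probe sets and was not analysed here. The list goes by gene function, but it was chosen with earlier results of these data known. Its share of called genes is therefore not an unbiased contrast with all tested genes.

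Light zone and dark zone B cells of the germinal centre were compared by Affymetrix expression arrays, 4 arrays for each zone. Germinal centres are the structures in lymphoid organs where activated B cells divide and mutate their antibody genes, which takes place mainly in the dark zone, and are selected through antigen and helper T cells, mainly in the light zone. All 8 samples came from lymph nodes of C57BL/6 mice taken 12 days after a subcutaneous dose of NP-KLH, a hapten on a carrier protein, in alum, and were gated as B220+CD38-CD95+ cells. The light zone samples and the dark zone samples differ in the zone sort alone as far as the labels say, and the labels call the 4 samples of each zone biological replicates. The age of the mice and the number of mice behind a sample are not given in the sources used here. There was no untreated or genetically altered group.

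Cells obtain cholesterol by uptake or by making it from acetyl-CoA through mevalonate, farnesyl diphosphate, squalene and lanosterol. Its level is sensed in the endoplasmic reticulum, where INSIG proteins hold the escort protein SCAP together with the SREBP transcription factors. When sterols are scarce, SCAP carries SREBP to the Golgi, where it is cleaved, and the released part turns on genes of sterol and fatty acid synthesis, often together with the factors NF-Y and Sp1. When sterols are abundant, oxysterols instead activate LXR, which turns on the efflux pumps ABCA1 and ABCG1. Dividing B cells need both sterols and fatty acids for new membrane.

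The labels word the light zone gate as CXCR4hi/CD83lo and the dark zone gate as CXCR4lo/CD83hi, the reverse of the usual definition, whereas the mRNA of both genes followed the titles. Cd83 had an intensity of 7381.5 ± 195 in light zone arrays and 1478 ± 111 in dark zone arrays, and Cxcr4 had 804 ± 39.3 in light zone arrays and 1571 ± 126 in dark zone arrays (SD, n = 4 each). Every direction given here is between arrays titled light zone and arrays titled dark zone. Intensities are RMA values on a linear scale, a difference is light zone minus dark zone on the log2 scale with its standard error (SE), and a gene is called at a limma Benjamini-Hochberg adjusted p under 0.05 over all 10547 tested genes. The intensity of a probe set has meaning only against the same probe set in another array. Array medians lay between 27.3 and 28.1, the median difference over all tested genes was 0.01, and precision is limited by the number of arrays.

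Markers of germinal centre B cells were strong in both zones, with summed intensities of 26645 to 27356 in light zone arrays and 27548 to 28492 in dark zone arrays over 10 genes. Of 8 measured T cell markers, 2 were above the filter on dim genes, and their sums were 183 to 192 in light zone arrays and 178 to 187 in dark zone arrays. Of 15 myeloid markers, 5 were above it, with sums of 367 to 429 in light zone arrays and 477 to 1206 in dark zone arrays. Most of that gap was Lyz2, at 52.6 ± 24.4 in light zone arrays and 469.8 ± 284 in dark zone arrays (SD, n = 4 each), and without it the sums were 326 to 344 in light zone arrays and 348 to 382 in dark zone arrays. Of 10 follicular dendritic and stromal markers, 4 were above the filter, with sums of 2193 to 2441 in light zone arrays and 1169 to 1468 in dark zone arrays, mostly from Cr2, which B cells also express. Plasma cell markers summed to 15954 to 17645 in light zone arrays and 17704 to 18717 in dark zone arrays over 7 genes, 6 of them above the filter. Each of these marker sums takes in every measured gene of its list, dim ones as well. The part of other cell types in the differences below was not tested. In bulk samples, fewer cells of a type and less RNA per cell cannot be told apart.

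Promoter sequence was at hand for 28 of the 36 genes in RefSeq (assembly GRCm38.p6), as 250 bases before to 50 after each annotated start. The windows were searched on both strands for the classical sterol regulatory element in the form TCACNCCAC, for its shorter start TCACNCCA (a form added after the longer search, and contained in it), for CCAAT, the box bound by NF-Y, and for GGGCGG, the GC box bound by Sp1. The longer element was found in 1 member, Hmgcs1, which is 3.57% of the 28, against 1.48% of the 8572 tested genes with a promoter and 1.24% of all 32851 promoters. The shorter form was found in 3 members, Hmgcs1, Srebf2 and Msmo1 (10.7%), against 4.65% of tested genes and 4.36% of all promoters. CCAAT was present in 22 members (78.6%), against 42.8% of tested genes and 37.4% of all promoters. The GC box was present in 23 members (82.1%), against 68.4% of tested genes and 35.7% of all promoters. A gene counted if any of its promoters held a match, whereas the share of all promoters goes by single promoter. Counted by gene over all 27025 genes, the shares were 1.44%, 4.97%, 41.1% and 38.2%, in the order above. A match is a description of the letters in these windows, and no match says only that these letters are not in them.

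The 250 bases before the start are printed for the 3 members with an element match. All 3 were higher in the light zone, as were 18 of the 28 members with a promoter. Capitals mark the match to the sterol element and, on either strand, each CCAAT box. The match is the longer form in Hmgcs1 and only the shorter form in Srebf2 and Msmo1. The first is Hmgcs1 at chr13:119690101-119690350 on the plus strand, whose element begins 137 bases before the start. The next is Srebf2 at chr15:82147019-82147268 on the plus strand, with the shorter form 162 bases before the start. The last is Msmo1 at chr8:64733579-64733828 on the minus strand, with the shorter form 177 bases before the start.
Hmgcs1: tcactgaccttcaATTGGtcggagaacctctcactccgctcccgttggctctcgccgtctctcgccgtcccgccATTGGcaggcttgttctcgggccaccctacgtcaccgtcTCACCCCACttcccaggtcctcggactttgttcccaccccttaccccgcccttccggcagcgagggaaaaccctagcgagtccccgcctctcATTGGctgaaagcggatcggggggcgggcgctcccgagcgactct
Srebf2: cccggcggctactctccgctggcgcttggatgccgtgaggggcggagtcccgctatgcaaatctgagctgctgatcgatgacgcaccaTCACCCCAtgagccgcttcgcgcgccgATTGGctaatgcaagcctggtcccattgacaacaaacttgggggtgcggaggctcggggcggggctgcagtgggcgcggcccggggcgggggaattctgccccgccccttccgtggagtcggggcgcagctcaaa
Msmo1: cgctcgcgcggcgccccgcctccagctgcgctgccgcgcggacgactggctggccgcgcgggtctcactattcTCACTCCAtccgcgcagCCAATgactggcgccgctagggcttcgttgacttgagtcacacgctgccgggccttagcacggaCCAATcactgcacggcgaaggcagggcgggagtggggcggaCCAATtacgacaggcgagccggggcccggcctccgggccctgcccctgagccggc

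For contrast, 3 further promoters are printed in the same way. Insig1, at chr5:28071162-28071411 on the plus strand, had the largest difference among the genes of SREBP control and holds 1 CCAAT box and no element match. Fads2, at chr19:10101504-10101753 on the minus strand, and Elovl6, at chr3:129532136-129532385 on the plus strand, were lower in the light zone, and neither holds an element or a CCAAT match in the bases shown. Presence of CCAAT does not divide the list by direction: the third lower member, Hsd17b7, has 3 CCAAT matches in its window, and the higher members Scap, Abca1 and Acaca have 0.
Insig1: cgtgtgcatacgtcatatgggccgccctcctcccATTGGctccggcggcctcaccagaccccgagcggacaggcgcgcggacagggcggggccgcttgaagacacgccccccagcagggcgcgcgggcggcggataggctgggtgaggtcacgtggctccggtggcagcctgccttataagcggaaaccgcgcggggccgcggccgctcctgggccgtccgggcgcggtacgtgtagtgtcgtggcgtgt
Fads2: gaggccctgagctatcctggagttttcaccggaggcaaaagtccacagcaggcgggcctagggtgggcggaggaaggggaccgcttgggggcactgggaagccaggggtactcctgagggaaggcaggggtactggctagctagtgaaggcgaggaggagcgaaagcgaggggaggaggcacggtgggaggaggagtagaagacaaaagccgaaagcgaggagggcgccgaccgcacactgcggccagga
Elovl6: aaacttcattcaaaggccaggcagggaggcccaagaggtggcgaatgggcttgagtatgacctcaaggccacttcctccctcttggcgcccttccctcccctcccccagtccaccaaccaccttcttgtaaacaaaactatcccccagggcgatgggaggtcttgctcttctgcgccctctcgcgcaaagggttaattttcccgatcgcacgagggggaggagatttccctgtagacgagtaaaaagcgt

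By call, CCAAT stood in the promoters of 15 of 18 members higher in the light zone, 1 of 3 lower and 6 of 6 not called. The GC box stood in 15 of 18 higher, 2 of 3 lower and 5 of 6 not called. The boxes were thus also present in the members that did not pass. The shorter form of the sterol element stood in 3 of 18 higher, 0 of 3 lower and 0 of 6 not called. Its longer form stood in 1 of 18 higher, 0 of 3 lower and 0 of 6 not called. Most higher members therefore had neither form in these windows.

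Across the list, 24 of 35 measured genes (68.6%) were higher in the light zone, 3 (8.57%) were lower and 8 did not pass. Among all tested genes 43.9% were called, 24.8% as higher and 19.1% as lower. The median difference of the 35 was 0.35, against 0.01 over all tested genes, with a range of -0.84 to 1.35. In 19 members all 4 light zone arrays lay above all 4 dark zone arrays, in 3 all lay below, and in 13 the zones overlapped. Of all tested genes, the zones did not overlap in 41.3%, with light zone arrays above in 23.2% and below in 18.1%. The 3 lower genes were Hsd17b7 of sterol synthesis, and Elovl6 and Fads2 of fatty acid elongation and desaturation.

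**Figure D1:**
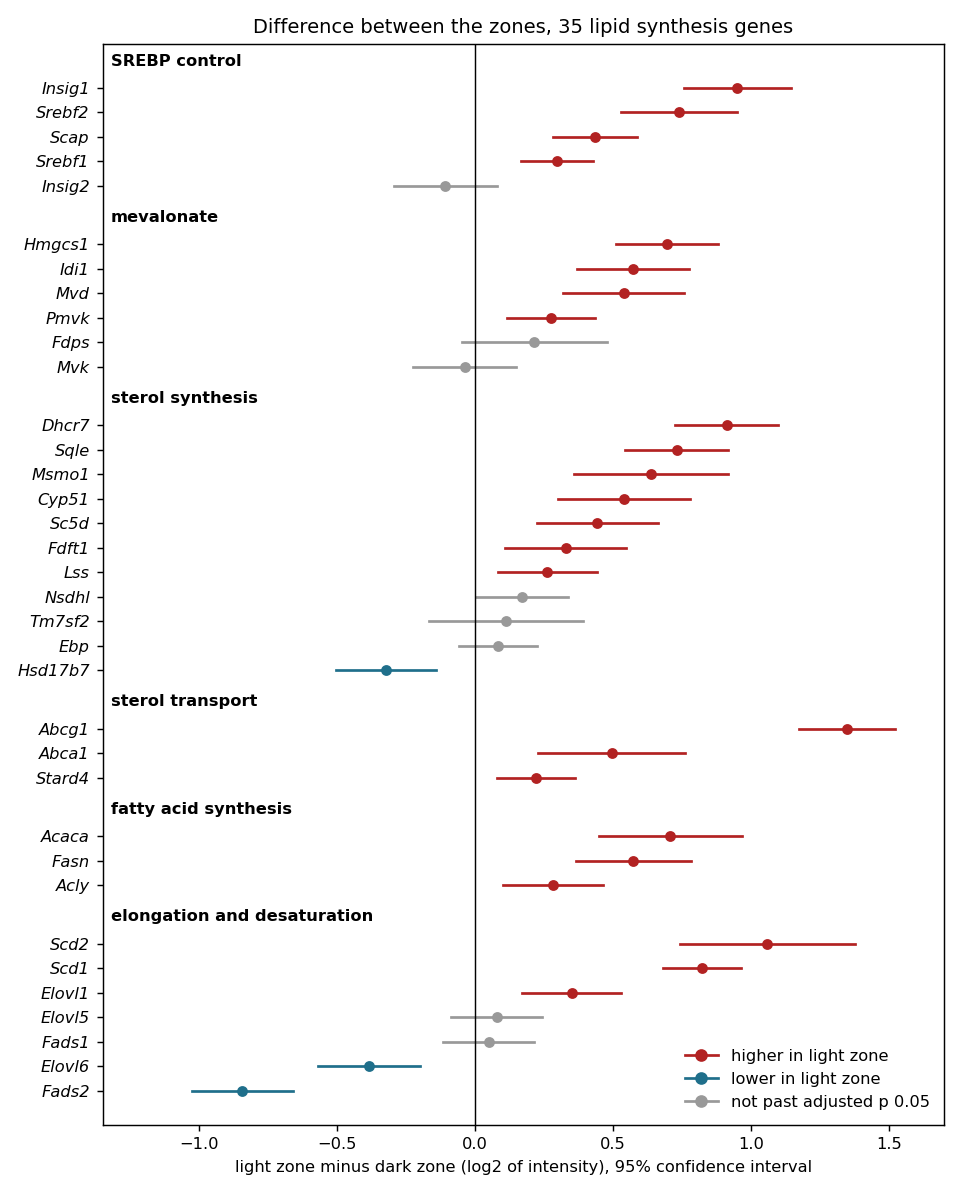
The plot shows the light zone minus dark zone difference (log2 of intensity) of each of the 35 genes, with its 95% confidence interval from limma, grouped by role and coloured by call. Abcg1 lies farthest to the right at 1.35 and Fads2 farthest to the left at -0.84, and genes of elongation and desaturation lie on both sides of 0.

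Among the 5 genes that sense sterols and control SREBP, the light zone was higher in 4, and Insig2 was not called. Their median difference was 0.43. Insig1, an endoplasmic reticulum anchor that is itself turned on by SREBP, had intensities of 511, 428, 591 and 499 in light zone arrays and 264, 244, 273 and 264 in dark zone arrays (replicates 1 to 4 in each zone). The lowest light zone array was well above the highest dark zone array. The difference was 0.95 (SE 0.09, limma adjusted p = 4.4e-06), or 1.93-fold. Insig2, the other anchor, had 185, 159, 178 and 205 in light zone arrays and 217, 179.6, 199 and 187 in dark zone arrays. These ranges overlapped, and the difference of -0.11 (SE 0.09, limma adjusted p = 0.33) had a 95% confidence interval of -0.30 to 0.08. A dimmer probe set of Insig2 gave -0.07 and another 0.34, neither called.

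Srebf2, which encodes the SREBP that acts mainly on sterol genes, had 1067, 804, 1035 and 927 in light zone arrays and 637, 507, 570.5 and 575 in dark zone arrays. The zones did not overlap, and replicate 2 was the lowest array in each. The difference was 0.74 (SE 0.10, limma adjusted p = 6.8e-05), or 1.67-fold. Srebf1, whose products act more on fatty acid genes, had 595, 555, 606 and 578 in light zone arrays and 507, 473, 464 and 458 in dark zone arrays. It too showed no overlap, with a smaller difference of 0.30 (SE 0.06, limma adjusted p = 0.0018). Scap, the escort that carries SREBP to the Golgi, averaged 260.2 ± 20.05 in light zone arrays and 192 ± 8.81 in dark zone arrays (SD, n = 4 each), which is 0.43 (SE 0.07) apart. A second probe set of Srebf2 (0.39) and of Scap (0.24) was called in the same direction. The mRNA of these regulators says nothing of how much SREBP protein is cleaved, which was not measured.

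In the mevalonate arm, 4 of 6 measured genes passed, all 4 as higher in the light zone, and 2 were not called, with a median difference of 0.41. Hmgcs1, the cytosolic HMG-CoA synthase that opens the pathway, had 2971, 2782, 3178 and 2917 in light zone arrays and 1589, 1871, 2111 and 1779 in dark zone arrays. All light zone arrays were above all dark zone arrays. The difference was 0.69 (SE 0.08, limma adjusted p = 3.9e-05), and its promoter, printed above, holds the longer element. Idi1, the isomerase that makes the active isoprene unit, had 1237, 1085, 1347 and 1112 in light zone arrays and 711, 802, 933 and 773 in dark zone arrays. It was also without overlap, at 0.57 (SE 0.09, limma adjusted p = 3.8e-04). Mvd, the mevalonate diphosphate decarboxylase, averaged 53.1 ± 5.37 in light zone arrays and 36.7 ± 4.76 in dark zone arrays (SD, n = 4 each), at 0.54 (SE 0.10). The preceding kinase gene Pmvk averaged 512 ± 42.9 in light zone arrays and 422 ± 21.5 in dark zone arrays, at 0.28 (SE 0.07). Neither Mvd nor Pmvk overlapped between the zones. A second probe set of Mvd, with a mean intensity of 42.2 against 44.9, gave 0.30 and was not called.

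The first kinase of the arm did not follow. Mvk, mevalonate kinase, had 71.0, 89.99, 92.4 and 85.1 in light zone arrays and 91.0, 81.7, 82.2 and 91.2 in dark zone arrays, and the lowest of the 8 was a light zone array. Its difference was -0.04 (SE 0.09, limma adjusted p = 0.75), with an interval of -0.22 to 0.15. Fdps, which makes farnesyl diphosphate, had 478, 338, 484 and 380.3 in light zone arrays and 395, 365, 378 and 301 in dark zone arrays. Its light zone arrays were spread over most of the range of both zones, and the difference of 0.21 (SE 0.12, limma adjusted p = 0.17) had an interval of -0.05 to 0.48. Without light zone replicate 2, Fdps was called, at 0.31 (limma adjusted p = 0.044).

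From squalene to cholesterol, 7 of 11 genes were higher, 1 was lower and 3 were not called, with a median of 0.33. Dhcr7, the reductase of the last step in one of the branches to cholesterol, had 261, 267, 299 and 284 in light zone arrays and 169, 138, 129.9 and 156 in dark zone arrays. The zones were far apart, with a difference of 0.91 (SE 0.09, limma adjusted p = 4.4e-06), or 1.88-fold. Sqle, squalene epoxidase, a rate-limiting enzyme of the pathway, had 783, 634, 785 and 694 in light zone arrays and 459, 411, 474 and 399.7 in dark zone arrays. It did not overlap either and differed by 0.73 (SE 0.09, limma adjusted p = 2.8e-05).

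The methylsterol oxidase gene Msmo1 had 882, 676, 949.8 and 723 in light zone arrays and 613, 459, 567 and 439 in dark zone arrays. Both zones ranged widely but did not overlap, and the difference was 0.64 (SE 0.13, limma adjusted p = 0.0017). Cyp51, the lanosterol demethylase, had 595, 523, 716 and 529.5 in light zone arrays and 450.0, 354, 442 and 375 in dark zone arrays, at 0.54 (SE 0.11). The sterol desaturase gene Sc5d had 506, 439.9, 552 and 441 in light zone arrays and 377, 342, 406 and 304 in dark zone arrays, at 0.44 (SE 0.10). Both were without overlap, and replicate 3 was the highest light zone array in each. A second probe set of Sc5d gave 0.31 and was not called. Fdft1, squalene synthase, which commits farnesyl diphosphate to sterols, was at 0.33 (SE 0.10, limma adjusted p = 0.020), and Lss, lanosterol synthase, at 0.26 (SE 0.08, limma adjusted p = 0.022), with overlapping arrays in both cases. Fdft1 arrays ran from 397 to 554 in the light zone and from 343 to 414 in the dark zone, and Lss arrays from 125 to 164 in the light zone and from 119 to 127 in the dark zone. Both calls lie near the threshold. Fdft1 was not called without light zone replicate 1 (0.31, limma adjusted p = 0.050) or 3 (0.24, 0.056), or without dark zone replicate 2 (0.29, 0.056) or 4 (0.30, 0.053). Lss was not called without light zone replicate 1 (0.23, limma adjusted p = 0.064) or 3 (0.21, 0.070), or without dark zone replicate 4 (0.25, 0.050). A second probe set was called higher for Fdft1 (0.31) and for Lss (0.80).

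Hsd17b7 moved the other way. It encodes the reductase that acts on the sterol ketone during removal of the methyl groups, after Nsdhl in the same step. Its intensities were 168, 167, 196 and 154 in light zone arrays and 238, 211, 207 and 200.05 in dark zone arrays. Every light zone array was below every dark zone array, and the difference was -0.32 (SE 0.08, limma adjusted p = 0.0076). This probe set has probes that may cross-hybridise to other transcripts, but 2 dimmer probe sets of the ordinary type gave -0.26 and -0.33 and were called as well.

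The other 3 genes of this arm did not pass. Nsdhl, a dehydrogenase of the same demethylation, was at 0.17 (SE 0.08, limma adjusted p = 0.092), and was called without light zone replicate 2 (0.21, limma adjusted p = 0.048) or dark zone replicate 1 (0.23, limma adjusted p = 0.026). Tm7sf2, a sterol reductase, was at 0.11 (SE 0.13, interval -0.17 to 0.39), and at 0.25 (limma adjusted p = 0.043) without dark zone replicate 1. The zone means of Tm7sf2 were 48.4 ± 2.06 in light zone arrays and 45.6 ± 10.5 in dark zone arrays, so that dark zone arrays carried most of its spread. Ebp, the sterol isomerase, was at 0.08 (SE 0.06, interval -0.06 to 0.22).

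**Figure D2:**
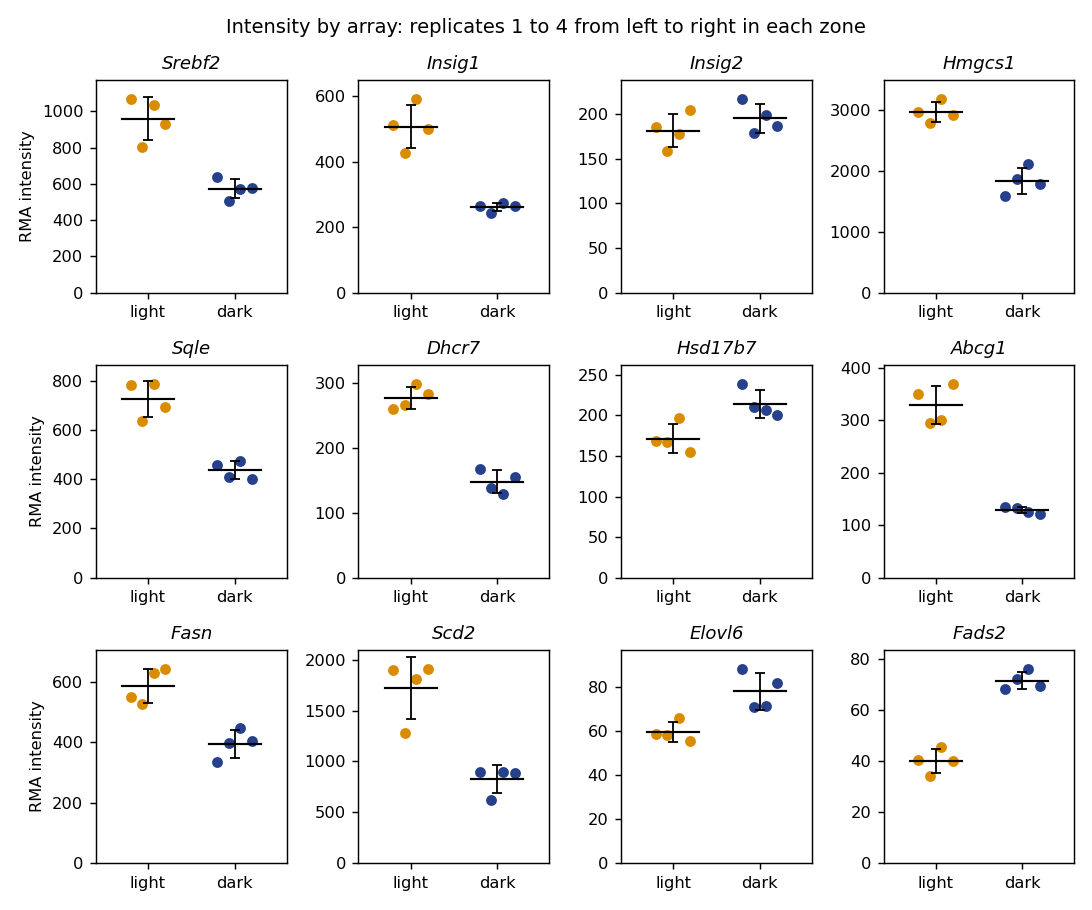
The panels show RMA intensity (linear scale, each axis from 0) in the 4 light zone arrays and the 4 dark zone arrays for 12 genes, as points in the order of replicates 1 to 4, with the mean as a line and the SD as a bar. Insig1 arrays run from 428 to 591 in the light zone and from 244 to 273 in the dark zone, while Insig2 arrays overlap and Fads2, Elovl6 and Hsd17b7 arrays are lower in the light zone.

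All 3 transport genes were higher in the light zone, with a median of 0.49. Abcg1, which passes cholesterol to lipoproteins and is a classical LXR target, had 349, 296, 301 and 368 in light zone arrays and 134, 134, 126 and 121 in dark zone arrays. Every light zone array was far above every dark zone array. The difference of 1.35 (SE 0.08, limma adjusted p = 9.4e-08) was 2.54-fold and ranked 97 of 10547 tested genes from the most positive. A dimmer probe set gave 0.95, but its dark zone mean of 27.7 was just under the filter level of 27.8. Abca1, the other efflux pump and LXR target, had 1110.4, 782, 945 and 951 in light zone arrays and 826, 565, 629.7 and 674 in dark zone arrays. Light zone replicate 2 lay below dark zone replicate 1, so the zones overlapped, with a difference of 0.49 (SE 0.12, limma adjusted p = 0.0060). With its probe sets averaged, 2 of which were too dim to test, Abca1 was at 0.13 and not called (limma adjusted p = 0.16). Macrophages are known for high levels of these pumps. The summed myeloid markers were lower in light zone arrays, mostly through Lyz2. Of 5 tested myeloid markers, 2 were called lower in the light zone, 2 were not called and 1 was called higher. The higher gene was Cd68 (0.40, limma adjusted p = 0.0039). The part of these markers in the values of the pumps was not tested.

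Stard4, a carrier of sterols between membranes, averaged 341 ± 18.5 in light zone arrays and 293 ± 15.9 in dark zone arrays (SD, n = 4 each), with overlap. It was at 0.22 (SE 0.06, limma adjusted p = 0.016) and was not called without light zone replicate 3 (limma adjusted p = 0.053). The dimmer probe sets of Stard4 gave 0.23 and 0.18 and were not called. Of 8 tested genes of a list of LXR partners, oxysterol enzymes and LXR targets, 2 were higher, 0 were lower (also 0 at an unadjusted p under 0.05) and 6 were not called by limma, with a median of -0.01. Without light zone replicate 1, or without dark zone replicate 4, 1 gene of this list was lower. The share of the list called higher was 25%, against 24.8% of all tested genes, of which 19.1% were called lower. The 2 higher genes were Lpcat3, a phospholipid remodelling enzyme, at 0.50 (SE 0.08), and Pltp, a phospholipid transfer protein, at 0.34 (SE 0.09). The LXR gene Nr1h3 was under the filter and was not tested.

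The 3 genes that build saturated fatty acid from citrate were all higher in the light zone, with a median of 0.57. Acaca, acetyl-CoA carboxylase, the committed step, had 245, 216, 249 and 259 in light zone arrays and 197, 134, 133 and 136 in dark zone arrays. The zones did not overlap, although dark zone replicate 1 stood apart from the other dark zone arrays. The difference was 0.71 (SE 0.12, limma adjusted p = 4.7e-04). Fasn, fatty acid synthase, had 550.2, 529, 629.8 and 643 in light zone arrays and 334, 398, 447 and 404 in dark zone arrays. It was without overlap as well, at 0.57 (SE 0.09, limma adjusted p = 4.3e-04).

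Acly, which splits citrate to give cytosolic acetyl-CoA for both pathways, is less settled. It had 1460.4, 1368, 1570.2 and 1738 in light zone arrays and 1211, 1199, 1219 and 1410.5 in dark zone arrays, with dark zone replicate 4 above light zone replicate 2. The difference was 0.28 (SE 0.08, limma adjusted p = 0.017), and the gene was not called without light zone replicate 4 (0.22, limma adjusted p = 0.051). This probe set has probes that may cross-hybridise to other transcripts, and the probe sets of Acly disagreed. The next brightest, of the ordinary type, gave 0.14 and was not called. The third, also of the ordinary type, gave -0.58 and was called lower.

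Genes of elongation and desaturation went both ways: 3 of 7 were higher in the light zone, 2 were lower and 2 were not called, with a median of 0.08. The genes of the desaturases that make monounsaturated fatty acids were higher. Scd1 had 4421, 4129.9, 4245 and 4223 in light zone arrays and 2657, 2338, 2401 and 2249 in dark zone arrays. The arrays of each zone were close together and the zones far apart, at 0.82 (SE 0.06, limma adjusted p = 1.0e-06). Scd2 had 1898, 1275, 1817 and 1908 in light zone arrays and 898, 625, 895 and 887 in dark zone arrays. Replicate 2 was the low array in both zones, and the zones did not overlap. The difference was 1.06 (SE 0.15, limma adjusted p = 1.0e-04), or 2.08-fold. A second probe set of Scd1 gave 1.15, whereas the second of Scd2 gave 0.04 and was not called.

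The genes of polyunsaturated fatty acid synthesis did not follow the monounsaturated arm. Fads2, the desaturase of its first step, had 40.4, 34.1, 45.6 and 40.1 in light zone arrays and 68.2, 72.4, 76.0 and 69.6 in dark zone arrays. All light zone arrays were below all dark zone arrays, and the difference of -0.84 (SE 0.08, limma adjusted p = 7.1e-06) ranked 10356 of 10547 from the most positive. Of its dimmer probe sets, 1 was called lower at -0.34 and the other gave -0.23 and was not called. Fads1, the later desaturase, was at 0.05 (SE 0.08, interval -0.12 to 0.21), and Elovl5, which elongates polyunsaturated fatty acids, at 0.08 (SE 0.08, interval -0.09 to 0.24).

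Elovl6, which lengthens the product of fatty acid synthase, had 58.7, 58.2, 65.8 and 55.1 in light zone arrays and 87.8, 70.5, 71.3 and 81.6 in dark zone arrays. The zones did not overlap, with a difference of -0.38 (SE 0.08, limma adjusted p = 0.0029), and a dimmer probe set gave -0.24 without a call. Elovl1, which makes very long saturated chains for sphingolipids, was higher instead, at 840.0 ± 42.8 in light zone arrays and 662 ± 74.6 in dark zone arrays (SD, n = 4 each), higher by 0.35 (SE 0.08, limma adjusted p = 0.0044). This probe set also has probes that may cross-hybridise. Of the dimmer probe sets of Elovl1, 2 were not called (0.15 and 0.07) and 1 was called higher (0.62). The one called higher averaged 38.8 in light zone arrays and 25.4 in dark zone arrays, the latter under the filter level of 27.8. It therefore passed the filter only through its light zone values.

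Sterol genes were set against fatty acid genes by their counts and medians. In the sterol set, 15 of 22 measured genes were higher in the light zone, 1 was lower and 6 were not called, with a median difference of 0.38. In the fatty acid set, 6 of 10 were higher, 2 were lower and 2 were not called, with a median of 0.32. The medians were 0.07 apart, the sterol set being the higher, but the gap was -0.04 without dark zone replicate 4. Within each set the differences spread far more than the medians did, over -0.32 to 0.95 in the sterol set and -0.84 to 1.06 in the fatty acid set.

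By array, the mean of the 22 sterol genes deviated from the mean of all 8 arrays by 0.23, 0.04, 0.32 and 0.17 in light zone arrays and by -0.09, -0.27, -0.14 and -0.26 in dark zone arrays (log2). The mean of the 10 fatty acid genes deviated by 0.15, -0.01, 0.20 and 0.20 in light zone arrays and by -0.09, -0.23, -0.12 and -0.10 in dark zone arrays. Replicate 2 was the lowest array of each zone for both sets, and no light zone array overlapped a dark zone array. The spread within a zone was larger for these genes than for most: the median SD of log2 values was 0.15 in light zone arrays and 0.13 in dark zone arrays over the members, whereas it was 0.09 in light zone arrays and 0.10 in dark zone arrays over all tested genes.

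**Figure D3:**
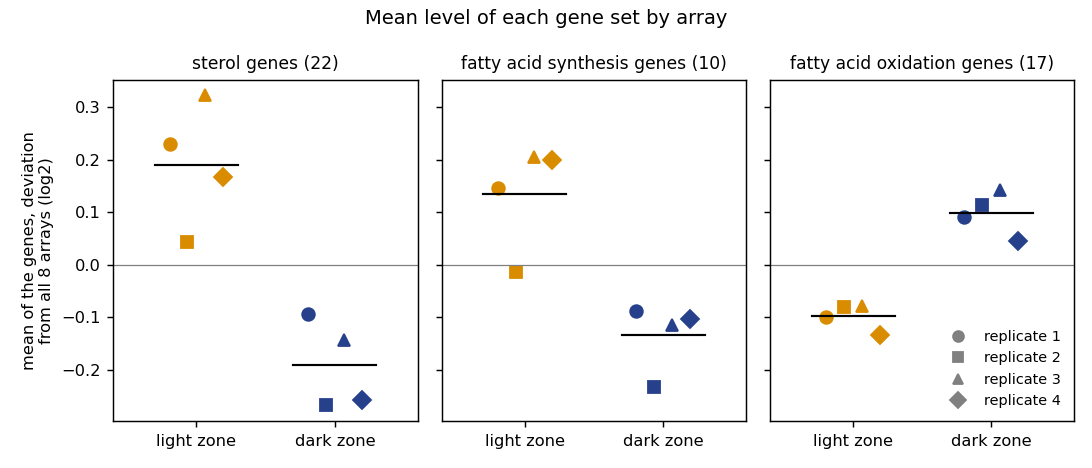
Each point is 1 array, plotted as the mean over the genes of a set of the deviation from that gene's mean over all 8 arrays (log2), with light zone arrays on the left, dark zone arrays on the right, the zone mean as a line and the replicate number as the symbol. Sterol genes lie between 0.04 and 0.32 in the light zone and between -0.27 and -0.09 in the dark zone, and fatty acid oxidation genes lie the other way round.

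Further genes of the same pathways were taken from lists of their own. A second sterol list (branches of the pathway, trafficking and control) had 13 tested genes. Of these, 4 were higher in the light zone, 2 were lower and 7 were not called, with a median of 0.07. The shares were 30.8% higher and 15.4% lower, against 24.8% and 19.1% of all tested genes. Npc1 (0.58, SE 0.08, limma adjusted p = 1.6e-04) and Npc2 (0.45, SE 0.07), which export cholesterol from lysosomes, were higher, as was Tmem97 (0.45, SE 0.09), whose protein binds the NPC1 protein. Mbtps1, the protease that makes the initial cut in SREBP, was lower at -0.32 (SE 0.07). Erlin1, which takes part in the degradation of sterol regulators, was lower at -0.20. With light zone replicate 1, light zone replicate 3 or dark zone replicate 3 left out, 1 gene of the list was lower.

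Of 14 tested genes of a second fatty acid list, 7 were higher in the light zone, 2 were lower and 5 were not called, with a median of 0.15. The shares were 50% higher and 14.3% lower, against 24.8% and 19.1% of all tested genes. The higher genes included Tecr (0.46, SE 0.10), the reductase of the elongation cycle, and Hacd2 (0.37), Hsd17b12 (0.28) and Hacd3 (0.17), which serve the same cycle. With the probe sets of a gene averaged, 3 of 12 tested genes of this list were higher, and with the probe set of highest variance 4 of 10. The acyl-CoA synthetase gene Acsl5 was lower at -0.48 (SE 0.07, limma adjusted p = 1.8e-04). Acsl4, a synthetase that favours polyunsaturated fatty acids, has no settled direction: it was higher at 0.44 (SE 0.06) by its brightest probe set, at 0.04 and not called with its probe sets averaged, and lower at -0.38 by the probe set of highest variance.

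Fatty acid oxidation, which breaks down what the synthesis genes make, was described as an opposing pathway, with no test of the list. Of 17 tested genes, 8 were lower in the light zone, 2 were higher and 7 were not called, with a median of -0.19. The shares were 47.1% lower and 11.8% higher, against 19.1% and 24.8% of all tested genes. Of the 17 values 14 were negative, as were 5194 of the 10547 values of all tested genes. Hadha, a subunit of the mitochondrial trifunctional protein, averaged 142 ± 16.4 in light zone arrays and 249 ± 15.3 in dark zone arrays (SD, n = 4 each), or -0.81 (SE 0.08, limma adjusted p = 1.1e-05). Cpt1a, the carnitine transferase that admits fatty acids to mitochondria and is itself blocked by malonyl-CoA, the product of the Acaca enzyme, averaged 765 ± 77.1 in light zone arrays and 1331 ± 160.1 in dark zone arrays, or -0.80 (SE 0.10, limma adjusted p = 4.4e-05). Eci1 (0.47, SE 0.08) and Decr1 (0.31, SE 0.08), auxiliary enzymes for unsaturated fatty acids, were the higher pair.

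The choice of probe set bears on several of these values. The 35 genes had 83 probe sets of their own symbol, of which 70 were above the filter: 37 were higher in the light zone, 7 were lower and 26 were not called. Over all 22519 probe sets above it, 40.8% were called, 21.4% as higher and 19.3% as lower. Of 23 genes with several probe sets above the filter, 8 had all of them called in 1 direction, 11 had called and uncalled ones and 4 had none called. Acly was the 1 gene called in both directions. For Hmgcs1 the probe sets ran from -0.17 (not called) to 1.19, for Cyp51 from 0.17 (not called) to 0.97 and for Lss as high as 0.80. The Hmgcs1 probe set at 1.19 averaged 61.2 in light zone arrays and 26.8 in dark zone arrays, the latter under the filter level of 27.8. The size of these differences thus depends on the probe set, and the cause was not tested.

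**Figure D4:**
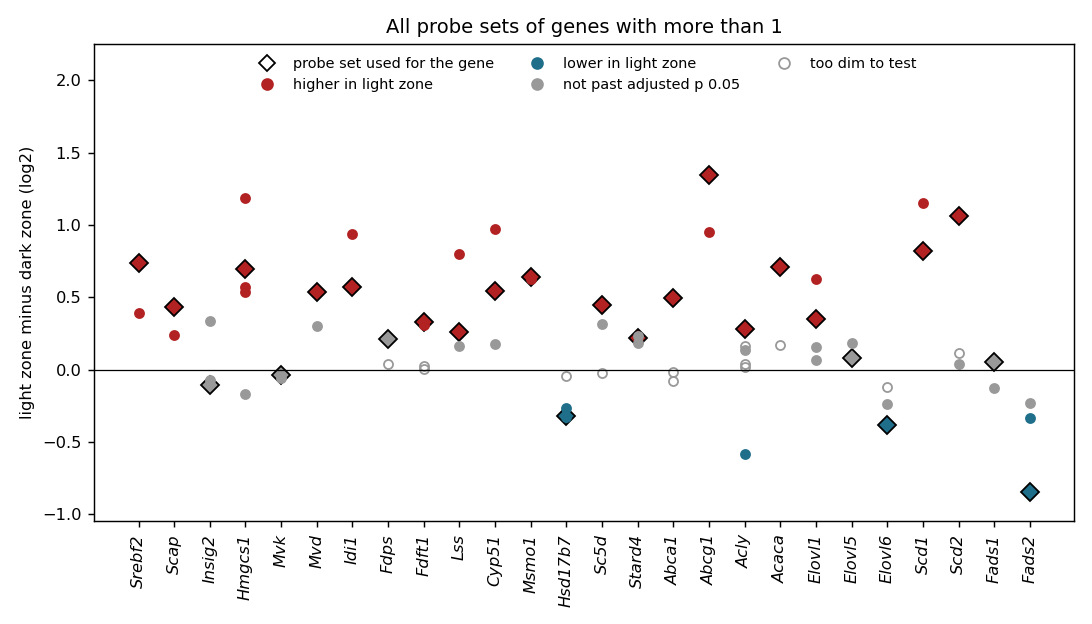
For each gene with more than 1 probe set, every probe set is a point at its light zone minus dark zone difference (log2), with a diamond for the brightest one, which stands for the gene, colour for the call and an open circle where it was too dim to test. Acly spans -0.58 to 0.28 among called probe sets, and the brightest and second probe sets of Scd2 lie at 1.06 and 0.04.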

How the data were processed

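Light zone and dark zone B cells were measured on 8 Affymetrix arrays, grouped by the zone in the titles. The table as deposited holds linear RMA intensities, with RMA (background correction, quantile normalization and probe summary) named per the submitters' processing notes and its version not given in the sources used here. Quantile normalization hides a change in total RNA per cell, and differences of dim genes are understated. These deposited intensity values were turned to log2 with no pseudocount, and all 8 value columns of the table were matched to samples by their labels.

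Of 45037 probe sets, 34945 carry 1 symbol, 932 several and 9160 none here, per the platform annotation. Of the first, 34741 matched the RefSeq gene table (GRCm38.p6) and 0 symbols changed. Each gene was represented by its probe set with 1 symbol and the highest mean log2 value over the 8 arrays, and was tested where this mean was at or above the 50th percentile over all probe sets, at an intensity of 27.8, so that 7646 genes were left out. Zones were compared by lmFit and eBayes of limma 3.58.1 under R 4.3.3 (two-sided, adjusted over all tested genes), which was tested on simulated data. Tables, promoter searches and figures used Python 3.11.15, pandas 2.3.3 and matplotlib 3.10.9.

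The members and all lists were chosen with earlier results of these data known, so lists are described by counts and medians with no test. Named genes are every member, up to 3 called genes with the largest differences in each further list, the genes of the zone gate, and up to 2 of each marker list. Mbtps1, Erlin1, Hacd2, Hsd17b12, Hacd3, Decr1, Lpin1, Gpam and Mid1ip1 were named after their values were seen. List members without a probe set that carries their symbol alone were not analysed here. The p-values measure the spread between these samples. Alternatives changed the probe set of a gene, the filter, the scaling, the threshold, limma's variance model and array weights, added a block for the replicate number, or left out each array. A shorter sterol element was added after the data were seen.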

Additional observations from a re-analysis of the deposited data

Results flagged for a closer look

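In 70 groups of 4 arrays (35 genes in each zone), 4 held an array far from the other 3 by Dixon's test at the 95% level, where chance gives about 1 in 20. Scd2 stood out in both zones, each time in replicate 2: the light zone array was at 1275, with the others between 1817 and 1908, and the dark zone array was at 625, with the others between 887 and 898. For Acaca, dark zone replicate 1 was at 197, with the others between 133 and 136. For Acly, dark zone replicate 4 was at 1410.5, with the others between 1199 and 1219. Without that array Acly remained higher in the light zone, and Scd2 and Acaca were called with any 1 array left out.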

How the results depend on the processing

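Of the 27 called members, 21 kept their call and direction under every alternative that tested them (20 of 21 for Mvd, Elovl6 and Fads2). The other 6 (Fdft1, Lss, Sc5d, Stard4, Abca1 and Acly) lost the call under at least 1, and 3 of the 8 uncalled members (Fdps, Tm7sf2 and Nsdhl) gained one. Over the alternatives the limma adjusted p ran from 0.0024 to 0.056 for Fdft1, 2.4e-05 to 0.070 for Lss, 0.0089 to 0.090 for Stard4, 2.4e-04 to 0.87 for Acly, 0.044 to 0.41 for Fdps, 0.043 to 1.0 for Tm7sf2 and 0.026 to 0.21 for Nsdhl. The number of members higher in the light zone lay between 20 and 26 and the number lower between 1 and 4. Leaving out each array in turn gave 21 to 26 higher and 3 lower members, 12 to 17 higher and 1 lower in the sterol set, and 5 to 6 higher and 2 lower in the fatty acid set. The set medians then lay between 0.31 and 0.45 (sterol) and between 0.27 and 0.38 (fatty acid), and their gap between -0.04 and 0.12. With the filter at the 75th percentile of probe set means, fewer genes were left to test, and Mvd, Elovl6 and Fads2 were not among them. Under this filter 1 member and 0 fatty acid genes were lower. The fatty acid median was then 0.57 and the gap of the medians was reversed at -0.14. With the probe sets of a gene averaged, the fatty acid median was 0.21, and Acly (0.01), Abca1 (0.13), Sc5d (0.24), Acsl4 (0.04) and Pltp (0.14) were not called. With the probe set of highest variance, Acly was at -0.58 and Acsl4 at -0.38, both reversed. With the shorter sterol element, 3 members had a match. At an adjusted p under 0.01, Fdft1, Lss, Stard4 and Acly were not called, and 1316 of all tested genes were lower in the light zone. Replicate numbers are shared by the zones, but nothing in the labels says that a number marks a shared source. Same-numbered arrays correlated at 0.13, 0.19, 0.06 and 0.24 in their deviations from the zone means, and the 12 pairs of different number at -0.15 to 0.09. For 7 of 8 arrays the best match was the array of their own number, which is a hint of pairing from the data, but 1 pair was under 0.1, and no block was used in the main results. With the replicate block, 25 members were higher and 3 lower (16 and 1 in the sterol set, 6 and 2 in the fatty acid set), and Nsdhl (0.17) was called. Other scalings moved the median of all tested genes by at most 0.03. With 4 arrays a zone, the median standard error over all tested genes was 0.07, and values near the filter lie close to the floor of the arrays.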

Other observations

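Genes further along the use of fatty acids, named after their values were seen, did not all move one way. Lpin1, a phosphatase that makes diacylglycerol, averaged 68.7 ± 5.54 in light zone arrays and 52.3 ± 5.37 in dark zone arrays (SD, n = 4 each), a log2 difference (light zone minus dark zone) of 0.40. Gpam, the acyltransferase that starts glycerolipid synthesis, differed by 0.19, with all light zone arrays above all dark zone arrays. Mid1ip1, which helps acetyl-CoA carboxylase form filaments, averaged 524 ± 14.5 in light zone arrays and 663 ± 28.7 in dark zone arrays (SD, n = 4 each). Its difference of -0.34 ran against that of Acaca, which encodes that carboxylase.

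Among the plasma cell markers, the regulators Irf4 and Prdm1 were higher in the light zone although the summed markers were not. Of 6 tested plasma cell markers, these 2 were called higher, 2 were called lower and 2 were not called. Irf4 averaged 239 ± 18.1 in light zone arrays and 58.7 ± 7.02 in dark zone arrays (SD, n = 4 each). Prdm1 averaged 45.4 ± 6.75 in light zone arrays and 17.6 ± 2.48 in dark zone arrays (SD, n = 4 each). Every dark zone array of Prdm1, at 14.6 to 20.5, was under the filter level of 27.8. Prdm1 was thus tested only through its light zone values.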
